A study of Danio rerio with 8 samples.

Results

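The genes described here are 3 nuclear lamin genes (lmna, lmnb1 and lmnb2), 3 simple epithelial keratin genes (krt8, krt18a.1 and krt18b) and the vimentin gene vim, 7 of the 28580 named gene rows of the count table. They were chosen by symbol, with earlier results of the same comparison known. Their differences between groups, and their calls in the fit across all genes, are therefore given as a description and not as a test. Total RNA was sequenced from dissected livers of zebrafish (Danio rerio) larvae at 7 days of age, with 10 livers pooled per library. The transgenic lf:YAP larvae, with 4 libraries, have hepatocyte-specific activation of YAP, a transcriptional coactivator that the Hippo kinases hold in check. They were set against wild-type (WT) larvae, also with 4 libraries. The larvae received no treatment. The labels do not name the promoter or the form of YAP that the transgene carries, nor whether pools are of different clutches, so the spread between libraries may in part be technical.

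All of these genes encode intermediate filament proteins. Lamins form a meshwork under the inner nuclear membrane: B-type lamins stay anchored to the membrane by a farnesyl group, while A-type lamins lose theirs when the precursor is cleaved, and the amount of A-type lamin is known to scale with the stiffness of a tissue. Keratin filaments are obligate pairs of a type II chain (krt8) with a type I chain (the krt18 genes), and keratin 8 with keratin 18 is the pair of simple epithelia, including mammalian hepatocytes. Vimentin is the intermediate filament of mesenchymal, endothelial and blood cells.

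Named genes took 2667884 to 3169590 counts per library in lf:YAP and 2853159 to 3797203 in WT, and levels are given as CPM, the count per 1e+06 counts after scaling by TMM factors. Hepatocyte markers summed to 19279.9 to 37024 CPM in lf:YAP and 31658 to 43549.5 CPM in WT. The markers went both ways: of 14 tested, 2 were called higher and 4 lower, beside 11.1% and 10.5% of all genes tested. Among the higher was fabp10a, at a mean of 7896 CPM in lf:YAP and 2698 CPM in WT. Among the lower was apoa2, at 1670 CPM in lf:YAP and 3560 CPM in WT. The yap1 row, which may include transgene reads, stood at 631, 1013, 299.6 and 1305 CPM in lf:YAP replicates 1 to 4, against 23.7, 23.7, 16.7 and 20.9 CPM in WT. Exocrine pancreas markers, from tissue next to the liver, summed to 16170 CPM in lf:YAP replicate 3 and to 3151 to 3732 CPM in the other lf:YAP libraries, against 2912 to 12227 CPM in WT with the most in replicate 4. The lf:YAP library with the least yap1 was therefore also the one with the most pancreas transcripts.

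The A-type lamin gene lmna was well expressed in lf:YAP livers and close to silent in WT livers. It had 193, 420, 117 and 448 counts in lf:YAP replicates 1 to 4, against 3, 3, 8 and 10 counts in WT. Scaled for depth these were 69.3, 107, 49.8 and 111 CPM in lf:YAP and 1.14, 1.14, 3.25 and 2.74 CPM in WT. Every lf:YAP library stood above every WT library. Taken as a ratio, the gap was larger than the span within either group, 2.22-fold in lf:YAP and 2.84-fold in WT. The mean level was 84.2 ± 29.6 CPM in lf:YAP and 2.07 ± 1.09 CPM in WT (SD, n = 4 each), 40.6-fold higher, with a fitted log2 fold change of 5.30 ± 0.37 (SE). In pooled whole livers, more cells with lmna transcripts and more transcripts per cell cannot be told apart.

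The B-type lamin genes differed far less. For lmnb2, the levels were 14.4, 21.9, 13.2 and 24.0 CPM in lf:YAP, against 12.97, 12.6, 8.54 and 10.4 CPM in WT. The groups did not overlap, but lf:YAP replicate 3 lay only just above WT replicate 1. The log2 fold change of lmnb2 was 0.74 ± 0.24 (SE). The other B-type gene, lmnb1, had 7, 23, 5 and 25 counts in lf:YAP and 10, 9, 8 and 6 counts in WT, which was under the count minimum of the fit. Its levels of 2.51, 5.85, 2.13 and 6.18 CPM in lf:YAP overlapped those of 3.82, 3.43, 3.25 and 1.65 CPM in WT: 2 lf:YAP libraries were above all WT libraries and 2 were among them. Under a looser minimum of 1 CPM in 4 or more libraries, the lmnb1 estimate was 0.58 on the log2 scale (95% interval from -0.45 to 1.61), which does not settle its direction.

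Both chains of the main simple epithelial pair were higher in lf:YAP. The type II gene krt8 had 1520.1, 1502, 1247 and 2049.9 CPM in lf:YAP replicates 1 to 4, against 769, 716, 820.3 and 719 CPM in WT. Its coefficient of variation was 21.3% in lf:YAP and 6.49% in WT, each the lowest of the 7 genes. The type I gene krt18a.1 had 968, 1141, 777 and 1359 CPM in lf:YAP, against 264, 235, 272 and 304 CPM in WT. Neither gene overlapped between groups. The log2 fold change was 1.06 ± 0.19 for krt8 and 1.98 ± 0.20 for krt18a.1 (± SE), so the type I chain gained more transcripts relative to its WT level than the type II chain did.

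The paralog krt18b was at a similar mean level in both groups. It had 13.3, 11.4, 32.3 and 25.2 CPM in lf:YAP, against 13.4, 29.0, 15.5 and 20.9 CPM in WT. The ranges overlapped almost fully, and its log2 fold change was 0.05, with a 95% interval from -0.81 to 0.90. Another row, krt18a.2, next to krt18a.1 in the annotation, had 3 to 10 counts per library in lf:YAP and 2 to 19 in WT. How reads shared by near-identical keratin paralogs were assigned is not given in the sources used here, so some krt18a.1 reads may sit in these rows, or the reverse.

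The vimentin gene vim was lower on average in lf:YAP. Its levels were 9.33, 3.56, 10.6 and 2.97 CPM in lf:YAP replicates 1 to 4, against 12.2, 33.6, 10.2 and 23.3 CPM in WT. The groups overlapped, since lf:YAP replicate 3 stood above WT replicate 3, and WT itself spanned 3.30-fold. The log2 fold change was -1.67 ± 0.50 (SE). Of the cell types known to make vimentin, stellate and mesenchymal markers summed to 33.3 to 66.4 CPM in lf:YAP and 46.6 to 144 CPM in WT, with pdgfrb at 0 in every library. Of the 7 such markers tested, 2 fell and 0 rose, beside 10.5% and 11.1% of all genes tested. Among those that fell was the desmin gene desma, which is also a muscle gene and is described below with the muscle markers. Endothelial markers summed to 111 to 182 CPM in lf:YAP and 117 to 191 CPM in WT, and of the 6 tested 0 rose and 0 fell. Leukocyte markers summed to 17.4 to 43.3 CPM in lf:YAP and 8.78 to 14.3 CPM in WT, higher in every lf:YAP library. Of these 10 markers, 0 passed the count minimum, so their sum rests on rare transcripts. The part of these cell types in the vim difference was not tested.

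**Figure D1:**
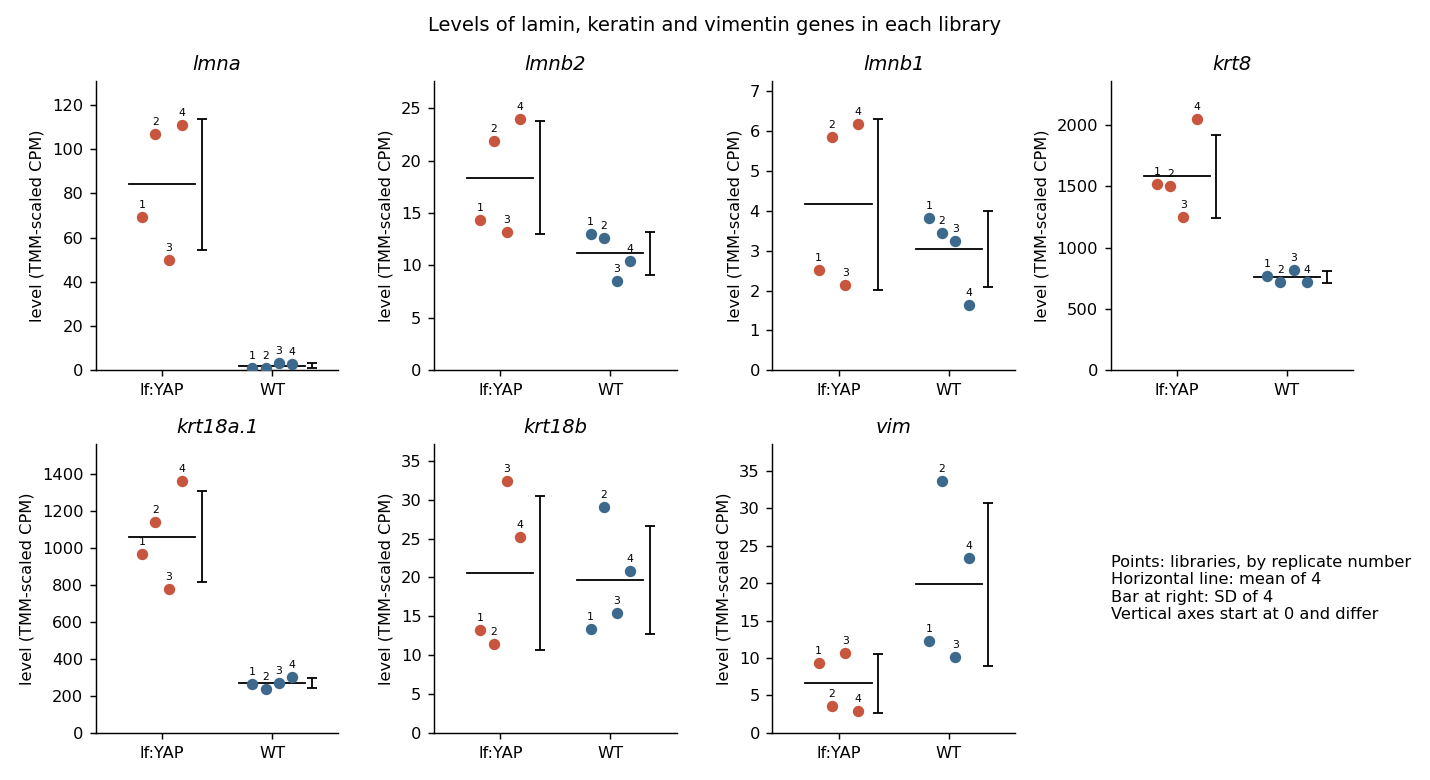
Level in TMM-scaled CPM of each gene in the 4 lf:YAP libraries (left, red) and the 4 WT libraries (right, blue), with replicate numbers beside the points, the mean as a line and the SD as a bar. The groups are apart for lmna, lmnb2, krt8 and krt18a.1 and overlap for lmnb1, krt18b and vim.

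Of the 7 genes, 6 passed the count minimum, and in the edgeR quasi-likelihood fit across all genes 4 of these had an adjusted p under 0.05 with a higher level in lf:YAP (lmna, lmnb2, krt8 and krt18a.1) and vim with a lower one. Of all 8358 genes tested, 21.5% were called, 11.1% higher and 10.5% lower. The libraries of the groups did not overlap for the same 4 genes with higher levels, against 23.7% of all genes tested in either direction. Since the genes were picked with this comparison in view, the calls are a description, and nothing is read from them or from these shares. The alternatives and the authors' own values rest on the same libraries, so they are not independent support. The calls of lmna, krt8 and krt18a.1 held under all alternatives tried. That of lmnb2 was lost with DESeq2 and without any single library but lf:YAP replicates 1 and 3. The vim call was lost when replicate 2 or 4 of either group was left out. The authors' deposited table gave log2 fold changes of 5.36 for lmna, 2.02 for krt18a.1 and 1.11 for krt8, all 3 with an adjusted p under 0.05, and 0.77 for lmnb2 and -1.69 for vim, which were not under it.

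Within a library, the make-up of the lamin and keratin transcripts differed between the groups. This follows from the levels given above, of genes picked with this comparison known, so the ratios are a description and not a further result. The ratios below are of counts not divided by transcript length, so they compare libraries with each other and do not give the proportion of the proteins. The share of lmna in the summed counts of the 3 lamin genes was 80.4%, 79.4%, 76.5% and 78.6% in lf:YAP replicates 1 to 4, against 6.38%, 6.67%, 21.6% and 18.5% in WT. It averaged 78.7 ± 1.67% in lf:YAP and 13.3 ± 7.92% in WT (SD, n = 4 each). The lf:YAP share was nearly the same in all 4 libraries although the lmna level itself spanned 2.22-fold among them, as the B-type counts were higher in the same libraries as lmna. The WT shares rest on 24 lmna counts in all.

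The ratio of krt18a.1 to krt8 counts was 0.637, 0.760, 0.623 and 0.663 in lf:YAP, against 0.343, 0.329, 0.332 and 0.422 in WT, again without overlap. It averaged 0.671 ± 0.0617 in lf:YAP and 0.356 ± 0.0442 in WT (SD, n = 4 each). The ratio of krt18b to krt18a.1 went the other way, at 0.0137, 0.0100, 0.0416 and 0.0186 in lf:YAP and 0.0506, 0.123, 0.0568 and 0.0687 in WT. The ratio of the B-type genes, lmnb1 to lmnb2, taken after their values were seen, overlapped, at 0.215 ± 0.0550 in lf:YAP and 0.276 ± 0.0918 in WT (SD, n = 4 each).

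**Figure D2:**
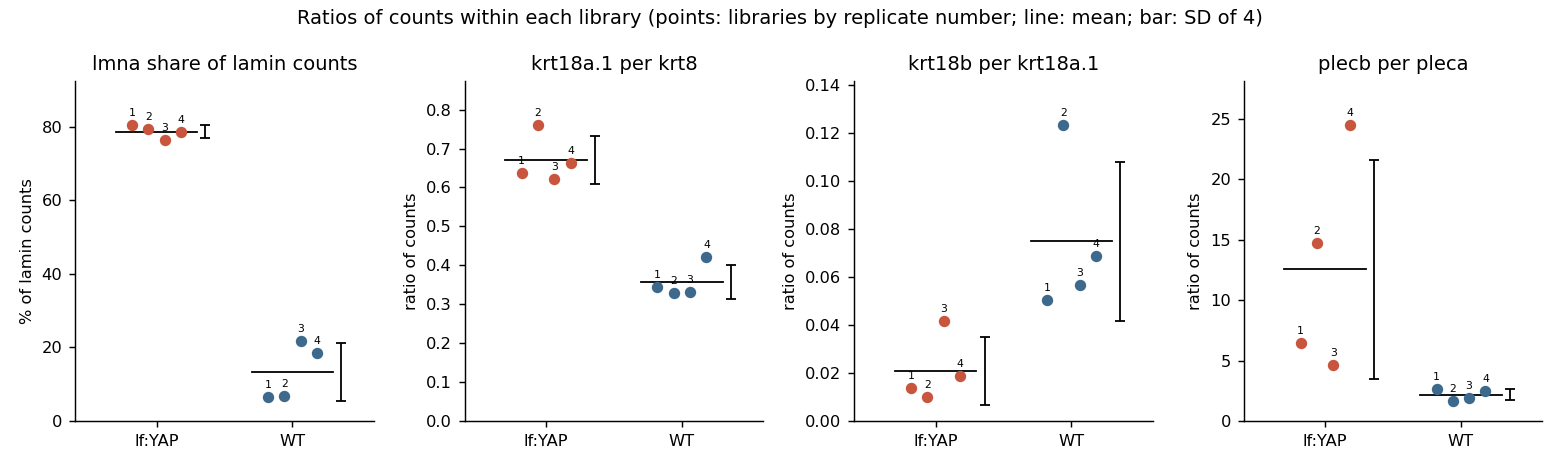
Ratios of counts within each library for lf:YAP (left, red) and WT (right, blue), with the mean as a line and the SD of 4 libraries as a bar; the first panel is in percent. The lmna share of lamin counts and the krt18a.1 to krt8 ratio do not overlap between groups. The plecb to pleca ratio, described with the plectin genes, was computed after their values were seen. It is above 4.6 in every lf:YAP library and at most 2.61 in WT.

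Among the lf:YAP libraries, yap1 was lowest in replicate 3, then 1, 2 and 4, a 4.36-fold span. The genes lmna, lmnb1, lmnb2 and krt18a.1 had the same order, as did 8.7% of all genes tested. They spanned less than yap1, with 2.22-fold for lmna, 2.91-fold for lmnb1, 1.82-fold for lmnb2 and 1.75-fold for krt18a.1. For krt8 the order differed only in replicates 1 and 2, at 1520.1 and 1502 CPM. With total counts alone it was that of yap1, but leaving out the TMM factors, given below, raises replicates 2 and 4 relative to 1 and 3 in every gene. How many of all genes had the yap1 order with total counts alone was not counted. The vim gene had its lowest level in replicate 4, then 2, 1 and 3, the reverse of the yap1 order, as did 10.1% of all genes tested; with total counts alone replicates 1 and 3 changed places, at 9.75 and 9.25 CPM, and the order was no longer the reverse. The lmna count per yap1 count, also taken after the values were seen, was 0.110, 0.105, 0.166 and 0.0849 in lf:YAP replicates 1 to 4, against 0.0484, 0.0484, 0.195 and 0.132 in WT. These ranges overlap, but the WT ratios rest on 24 lmna counts in all and are imprecise. Mean levels differed between groups by 40.6-fold for lmna and 38.3-fold for yap1. With 4 libraries no correlation is given, and other library measures move along with yap1: the TMM factors were lowest in replicate 3 (0.869), then 1 (1.04), and 1.28 in both 2 and 4, while the pancreas marker sums ran in the reverse order, at 16170, 3732, 3545 and 3151 CPM in replicates 3, 1, 2 and 4. Their part in these orders was not tested.

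**Figure D3:**
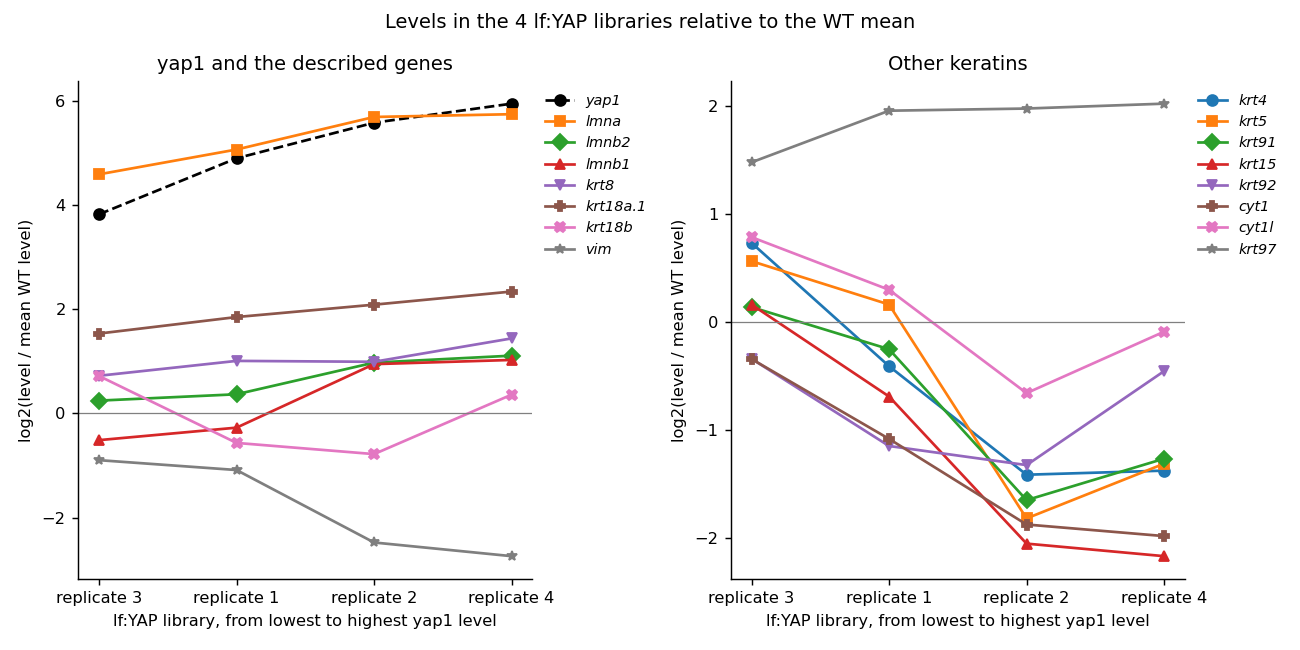
Level in each lf:YAP library divided by the mean WT level, on a log2 scale, with the libraries set from the lowest to the highest yap1 level. At left, yap1 (dashed), lmna, lmnb1, lmnb2 and krt18a.1 climb from replicate 3 to replicate 4 while vim declines; at right, krt4, krt5, krt91, krt15 and cyt1 are highest in replicate 3, and krt97 is lowest there.

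Genes whose products bind, anchor or process lamins mostly did not pass the test. Of 27 such genes with a row, 16 were tested, and 2 rose, 1 fell and 13 did not pass by the edgeR quasi-likelihood test. Over all genes tested, 11.1% rose and 10.5% fell, so most of those did not pass either. The median log2 fold change of the 16 was 0.08 beside 0.01 over all genes tested. The metalloprotease gene zmpste24, whose product cleaves the farnesylated end off prelamin A, rose to 6.82, 13.7, 9.36 and 13.8 CPM in lf:YAP replicates 1 to 4, against 5.72, 5.72, 4.88 and 4.12 CPM in WT. The groups did not overlap, and the log2 fold change was 1.13 ± 0.28 (SE; adjusted p = 0.0116), a call that held in every alternative tried. The chromatin-bridging gene banf1, whose product binds DNA and LEM-domain proteins of the envelope, had 11.6 ± 1.65 CPM in lf:YAP and 6.04 ± 3.09 CPM in WT (SD, n = 4 each). Its log2 fold change was 0.92 ± 0.31 (SE; edgeR adjusted p = 0.0466), and the call was lost with DESeq2 and without any single library but WT replicate 2, with adjusted p of 0.053 to 0.121. The nuclear basket nucleoporin gene nup153 fell, at 23.4 ± 2.36 CPM in lf:YAP and 35.1 ± 8.02 CPM in WT, a log2 fold change of -0.57 ± 0.18 (edgeR adjusted p = 0.0403). Its adjusted p was 0.0556 to 0.44 when WT replicate 2 or 3 or lf:YAP replicate 1 or 2 was left out, with total counts alone, with either other filter and with DESeq2.

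Of the enzymes that prepare lamins before that cleavage, the farnesyltransferase subunit genes fnta and fntb did not pass, at 0.59 ± 0.32 and 0.04 ± 0.23 on the log2 scale (± SE). The LINC complex, which couples the lamina to the cytoskeleton, was also without a call. The SUN-domain gene sun1 had 20.3 ± 4.03 CPM in lf:YAP and 14.0 ± 2.90 CPM in WT (SD, n = 4 each; edgeR adjusted p = 0.0815). The nesprin genes syne1a (59.06 and 48.3 CPM) and syne2b (27.8 and 33.0 CPM), and the nuclear basket genes tpra (20.6 and 19.1 CPM) and tprb (25.3 and 24.1 CPM), in lf:YAP and WT, made up with nup153 the 5 genes of the list with the highest WT levels, and these 4 did not pass. The lamin B receptor gene lbr (4 to 24 counts per library in lf:YAP, 3 to 8 in WT) and the emerin gene emd (8 to 21 in lf:YAP, 5 to 15 in WT) were too low to be tested. The fish oocyte lamin gene lmnl3 had 2 counts in 1 lf:YAP library and 0 in the other libraries of both groups.

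Genes for plakins and for the junctions that anchor keratins changed in both directions. Of 26 genes for plakins, desmosomes and hemidesmosomes with a row, 18 were tested, and 3 rose, 3 fell and 12 did not pass by the edgeR quasi-likelihood test. All genes tested also went both ways, with 11.1% that rose and 10.5% that fell. The median log2 fold change of the 18 was 0.31. The desmoplakin gene dspa, whose product ties keratins to desmosomes, rose to 109, 145, 87.2 and 174 CPM in lf:YAP, against 55.3, 62.2, 64.3 and 73.0 CPM in WT. Its log2 fold change was 1.02 ± 0.21 (SE; adjusted p = 0.0046). The paralog dspb had 58.8 ± 30.7 CPM in lf:YAP and 29.6 ± 4.97 CPM in WT (SD, n = 4 each) and did not pass (edgeR adjusted p = 0.0682). The plakophilin gene pkp3a, of the desmosomal plaque, had 40.9 ± 9.98 CPM in lf:YAP and 21.2 ± 7.99 CPM in WT (SD, n = 4 each; edgeR adjusted p = 0.0319). The pkp3a call was lost without WT replicate 2 or 4 or lf:YAP replicate 1, 2 or 4 (adjusted p of 0.0597 to 0.0985). In place of the 3 that rose there was 1 without WT replicate 2 or lf:YAP replicate 2, and there were 5 without lf:YAP replicate 3 and 6 with total counts alone. Over all genes tested, 781, 702, 1223 and 1538 rose in these fits, in that order, in place of 925.

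The plectin paralogs, which encode the large crosslinker that joins keratins to hemidesmosomes, actin and the nuclear envelope, moved in opposite directions. The gene plecb rose to 318, 460, 194 and 575 CPM in lf:YAP, against 174, 136, 121 and 223 CPM in WT. The gene pleca fell to 49.5, 31.3, 42.1 and 23.5 CPM in lf:YAP, against 66.8, 82.8, 63.0 and 89.2 CPM in WT. The pleca groups were apart, while for plecb lf:YAP replicate 3 lay under WT replicate 4. The log2 fold changes were 1.24 ± 0.32 for plecb (edgeR adjusted p = 0.0169) and -1.06 ± 0.22 for pleca (0.00529). The plecb call was lost without WT replicate 2 or 3 or lf:YAP replicate 2, at adjusted p of 0.0504 to 0.0531. The ratio of plecb to pleca counts, computed after these values were seen, was 6.42, 14.7, 4.62 and 24.5 in lf:YAP and 2.61, 1.65, 1.92 and 2.50 in WT. As the 2 genes moved in opposite directions, the ratio is a description only. Its lf:YAP libraries had the order of yap1, but how many other ratios have that order was not counted.

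The microtubule-actin crosslinker gene macf1a, a spectraplakin, fell to 113, 88.0, 94.5 and 119 CPM in lf:YAP, against 233, 203, 207 and 180 CPM in WT. On the log2 scale the change was -0.99 ± 0.16 (SE; edgeR adjusted p = 0.00125). The envoplakin gene evpla, of squamous epithelia, fell to 2.86 ± 1.25 CPM in lf:YAP, against 8.33 ± 2.88 CPM in WT (SD, n = 4 each; edgeR adjusted p = 0.00936). The periplakin gene ppl had 28.7 CPM in lf:YAP and 59.6 CPM in WT and did not pass (adjusted p = 0.0672).

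Most other keratins did not pass the test. Of those that did, more fell than rose with all libraries kept, but not in every fit without a single library. Of 41 other keratin and intermediate filament genes with a row, 16 were tested, and 1 rose, 4 fell and 11 did not pass by the edgeR quasi-likelihood test. Over all genes tested, 11.1% rose and 10.5% fell. Their median log2 fold change was -0.47 beside 0.01 over all genes tested, and -0.21 beside 0.31 with total counts alone. The keratin gene krt97 rose to 78.2, 79.3, 56.2 and 81.8 CPM in lf:YAP, against 8.01, 25.2, 15.0 and 32.4 CPM in WT, or 1.86 ± 0.34 on the log2 scale (SE; adjusted p = 0.00381). Its groups did not overlap and its call held in every alternative tried. The keratin genes that fell were krt1-19d, to 3.70 CPM in lf:YAP against 11.9 CPM in WT (edgeR adjusted p = 0.0213), cyt1, to 9.16 against 20.5 CPM (0.0347), and krt92, to 87.2 against 147 CPM (0.0376). The desmin gene desma, the muscle intermediate filament, fell to 4.42 against 23.2 CPM (edgeR adjusted p = 0.0308). Skeletal muscle markers summed to 158 to 1052 CPM in lf:YAP and 798 to 1693 CPM in WT, with 4 of the 10 tested lower, 0 higher and none at 0 in all libraries, and their part in the desma difference was not tested. All 4 calls were lost without WT replicate 4 and without lf:YAP replicate 2, and 3 of them in other single-library fits too: cyt1, krt92 and desma without lf:YAP replicate 1 or WT replicate 2, krt92 and desma without WT replicate 3, and cyt1 without lf:YAP replicate 4. The krt92 call was also lost with total counts alone. Without lf:YAP replicate 3, 7 of 18 tested genes of the list fell in place of 4 of 16, against 2 of 17 without WT replicate 3. Over all genes tested, 1311 and 696 fell in these 2 fits, in place of 875. Only 1 gene of the list fell without WT replicate 2 or 4 or lf:YAP replicate 2, fits in which 642, 796 and 606 of all genes fell. Beside that 1, 2 rose without WT replicate 4 or lf:YAP replicate 2, and 1 rose without WT replicate 2.

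Of the 5 other keratins with the highest WT levels, all but krt92 did not pass. The surface epidermis gene krt4 had 156, 77.8, 344 and 79.9 CPM in lf:YAP replicates 1 to 4, against 122, 215, 193 and 298 CPM in WT. For the basal epidermis gene krt5 the levels were 63.2, 16.0, 83.4 and 22.7 CPM in lf:YAP, against 41.2, 69.1, 56.1 and 59.3 CPM in WT. The levels of krt91 were 110, 41.7, 144 and 54.4 CPM in lf:YAP, against 110, 159, 124 and 129.5 CPM in WT, and krt94 averaged 68.9 CPM in lf:YAP and 58.8 CPM in WT. In krt4, krt5 and krt91 the lf:YAP libraries spread widely, with replicates 1 and 3 above replicates 2 and 4. Of the 16 tested genes of this list, 6 had the lf:YAP order 2, 4, 1, 3 from low to high, which 6.95% of all genes tested had, and 4 had the order 4, 2, 1, 3, which 10.1% had.

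Markers of the epidermis, 12 genes that include several of these keratins, summed to 384, 164, 649 and 204 CPM in lf:YAP replicates 1 to 4, against 319, 527, 438 and 584 CPM in WT. Of the 8 tested, 2 fell and 0 rose, beside 10.5% and 11.1% of all genes tested. The lf:YAP library with the highest epidermal sum, replicate 3, had the lowest krt8 and krt18a.1 levels of its group and also the least yap1. In WT, replicate 4 had the highest epidermal sum and the highest krt18a.1 level, at 304 CPM. Its krt8 level was 719 CPM, within a WT range of 716 to 820 CPM. The part of epidermal cells in these levels was not tested. Bile duct markers, cells in which keratin 8 and 18 are also known to be strong, summed to 1299, 1255, 1157 and 2216 CPM in lf:YAP, against 687, 744, 628 and 731 CPM in WT. Of the 10 tested, 4 rose and 0 fell, beside 11.1% and 10.5% of all genes tested. Most of the sum was the annexin gene anxa4, at 1087 CPM in lf:YAP and 412 CPM in WT. Intestine markers summed to 354, 277, 666 and 310 CPM in lf:YAP replicates 1 to 4, against 388, 553, 584 and 996 CPM in WT. Of the 7 tested, 3 fell and 0 rose, beside the same shares of all genes. The part of duct, intestine and pancreas cells in the krt8 and krt18a.1 levels was not tested.

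**Figure D4:**
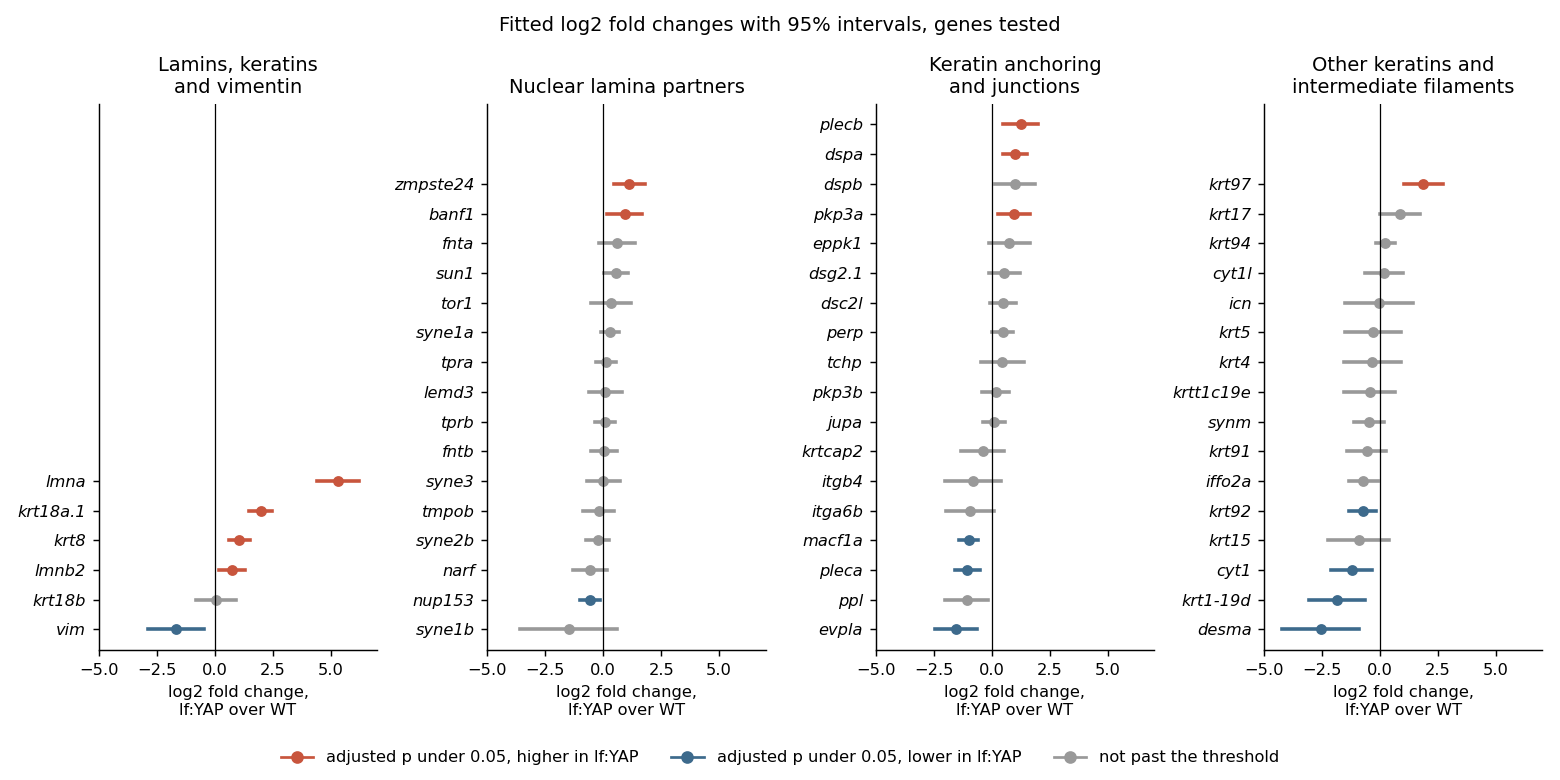
Fitted log2 fold change, lf:YAP relative to WT (point), with its 95% interval (line) for each tested gene of the 4 groups of genes, red or blue where the adjusted p was under 0.05. In the left panel, which is a description of genes chosen with this comparison known, lmna is at 5.30 and vim at -1.67; in the other panels most intervals include 0, and krt97, at 1.86, has the highest estimate.

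The genes whose profiles were most like those of lmna, krt18a.1 and krt8 were found by the root mean square difference over the 8 libraries. It was taken on log2 CPM set relative to each gene's own WT mean. The measure therefore ranks genes largely by how alike their lf:YAP to WT differences are in size, and it is no test of a link between genes. The 5 genes listed for lmna, itself at a log2 fold change of 5.30, were at 5.26, 5.11, 4.44, 4.49 and 6.89 in the order named below. The search covered 7376 tested genes whose log2 CPM averaged 2 or more and that had no clone-type name. Genes with clone-type names, such as those starting with si: or zgc:, were passed over, so a closer profile among them would not be listed. For lmna the nearest was yap1 itself (0.56), then the sugar transporter family gene slc5a9 (0.69), the kinase gene nuak2 (0.75), the angiomotin-like gene amotl2b (0.75) and the nitric oxide synthase gene nos2a (0.80). For krt18a.1 they were the phosphatidylcholine synthesis gene pcyt1bb (0.11), the glutathione reductase gene gsr (0.14), swap70b (0.14), the Par3 family polarity gene pard3ba (0.19) and the amyloid precursor-like gene aplp2 (0.20). For krt8 they were the oxysterol-binding protein gene osbp (0.11), smad9 (0.11), the E-cadherin gene cdh1 (0.12), the tyrosine phosphatase gene ptpn3 (0.13) and the tubulin gene tuba8l4 (0.13). E-cadherin, the adhesion molecule of epithelial junctions, had 166 CPM in lf:YAP and 82.1 CPM in WT for cdh1, a log2 fold change of 1.01 ± 0.16 (SE).

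In RefSeq's annotation of the GRCz12tu assembly, krt8 and krt18a.1 lie on chromosome 23 with no other named protein-coding gene of the count table between them. The next such genes outward were krt5, which had a log2 fold change of -0.31 ± 0.50 (SE) and did not pass (edgeR adjusted p = 0.71), and krt18a.2, which was too low to be tested. On chromosome 22, the neighbours of lmnb2 were impact and the ribosomal protein gene rpl36, at -0.32 ± 0.25 and -0.07 ± 0.20 on the log2 scale. On chromosome 16, the neighbours of lmna, pear1 and mc2r, averaged 0.286 and 0 CPM in lf:YAP and 0.600 and 0.191 CPM in WT.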

How the data were processed

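Per the file headers, the deposited table gives each gene's whole-number count in each library. It also gives the CPM, which the authors made by scaling each count to its column total. The authors' deposited table further lists their log2 fold changes, mean log2 expression, p-values and adjusted p-values. The submitters' processing notes name danRer10, limma 3.40.6, featureCounts 1.6.0, HISAT2 2.1.0 and cutadapt 1.16 without saying what each did; annotation and strand setting of the counting: not given in the sources used here. Per the labels' protocols, a stranded low-input kit was used on total RNA and fragments were read as 75-base pairs. Of 35117 rows, 6518 without a name (0.657% to 2.55% of a library's counts) and 19 named by dates were left out.

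Counts were fitted in R 4.3.3 with edgeR 4.0.16: filterByExpr, TMM, robust quasi-likelihood F-test, 2-sided, group as the only term, Benjamini-Hochberg adjustment over all genes, call at 0.05. The SE is the log2 fold change divided by the square root of F, and 95% intervals used 6 residual degrees of freedom. The script was tested on simulated data. The 7 genes and all lists were chosen with earlier results of these data known. Listed genes named are those that passed, the 5 with the highest WT level per list, nearest profiles and neighbours; other names were chosen after their values were seen. Alternatives used DESeq2 1.42.0, limma-voom (limma 3.58.1), other scalings and filters, a replicate block and fits without single libraries. The precision of rare genes is limited by the depth of 2667884 to 3797203 counts per library, and p-values speak only for the spread among these libraries, which may be technical. No sequences were used.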

Additional observations from a re-analysis of the deposited data

Results flagged for a closer look

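In 78 groups of 4 libraries examined, 6 held a library whose gap to its nearest neighbour was over 0.829 of the group's range; by chance about 1 group in 20 would. For the ratio of krt18a.1 to krt8 counts, WT replicate 4 stood apart at 0.422, against 0.329 to 0.343 in the other WT libraries. For krt97, lf:YAP replicate 3 was at 56.2 CPM, against 78.2 to 81.8 CPM in the others. For nup153, lf:YAP replicate 4 was at 27.0 CPM, against 21.9 to 22.6 CPM. For the YAP paralog gene wwtr1, lf:YAP replicate 4 was at 11.4 CPM, against 9.33 to 9.66 CPM. Bile duct markers summed to 2216 CPM in lf:YAP replicate 4, against 1157 to 1299 CPM in the other lf:YAP libraries. Exocrine pancreas markers summed to 16170 CPM in lf:YAP replicate 3, against 3151 to 3732 CPM.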

How the results depend on the processing

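The direction of lmna, lmnb2, krt8, krt18a.1 and vim was the same under all alternatives, with log2 fold changes of 5.10 to 5.67, 0.59 to 1.08, 0.92 to 1.40, 1.85 to 2.32 and -1.99 to -1.32; that of krt18b, never called, ran from -0.23 to 0.31. Of the 14 listed genes called, none changed direction, and 47 of their 252 values under alternatives no longer passed. The cause of these changes was not tested. Over all genes, 1800 of 8358 tested were called, with 2849 of 22920 without a filter on low counts, which is a smaller share, and 1308 to 2534 without single libraries. Of these 925 were higher and 875 lower, against 1538 and 520 with total counts alone and 1401 and 1448 without a filter; without single libraries they were 702 to 1223 and 606 to 1311. Of the 7 described genes, the count called lower was 0 or 1 without single libraries. Without a filter more list genes were tested, with 25 plakin and junction genes in place of 18, 26 lamina partners in place of 16 and 41 other keratins in place of 16. Among plakin and keratin junction genes, in place of 3 that rose there were 6 with total counts alone and without a filter. There were also 6 without WT replicate 4 and lf:YAP replicate 3 together, and 1 to 5 without single libraries. Among lamina partners, in place of 2 that rose there was 1 with DESeq2 and without WT replicate 4 and lf:YAP replicate 3 together, and 1 to 2 without single libraries. In place of the 1 that fell there were 0 with total counts alone, with genes kept at 1 CPM, without a filter and with DESeq2, and 0 to 1 without single libraries. Among other keratins, in place of 1 that rose there were 2 with total counts alone, with library sizes without the 3 highest-count rows, with genes kept at 1 CPM, and without WT replicate 4 and lf:YAP replicate 3 together, 3 without a filter, and 1 to 2 without single libraries. The 4 that fell became 1 to 7 without single libraries. Replicate numbers are shared between groups, but same-numbered libraries did not deviate together (correlations of -0.0442 to 0.0462), so they were not taken as pairs. With the replicate block, 1682 genes were called, 852 higher and 830 lower; vim was not called (0 of the 7 genes lower), 0 lamina partners fell and 2 other keratins fell. Ratios moved by less than the spread between libraries without any single library. The lmnb1 counts were too few for a direction.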
